A study of Mus musculus with 8 samples.

Results

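Transforming growth factor beta (TGF-beta) and activin form closely related branches of 1 signaling family, and 10 genes of these branches are described here in mouse mammary tumor organoids with and without SOX4. They are the ligand genes Tgfb1, Tgfb2, Tgfb3, Inhba and Inhbb, the receptor genes Tgfbr1 and Tgfbr2, the inhibitors Fst and Smad7, and the target gene Tgfbi. The genes were taken by name, with no measured value in the rule, but with earlier results of these data known. All 10 were found among the 38293 gene identifiers of the bulk tables and among the 15149 genes of the single-cell tables. By annotation Tgfb1 (ENSMUSG00000002603) lies on chromosome 7, Tgfb2 (ENSMUSG00000039239) and Inhbb on 1, Tgfb3 on 12, Tgfbr1 on 4, Tgfbr2 on 9, Smad7 on 18, and Inhba, Fst (ENSMUSG00000021765) and Tgfbi (ENSMUSG00000035493) on 13.

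Ligands of this family bind a type II receptor, which then activates a type I receptor. The activated receptor phosphorylates SMAD2 and SMAD3, which join SMAD4 and enter the nucleus to regulate transcription. TGF-beta is secreted in a latent form, held by its own propeptide and tethered to matrix by LTBP proteins or to cell membranes by LRRC32 (GARP), and integrins or proteases release it. Activins are dimers of the inhibin beta chains and are neutralized by follistatin. In mammary epithelium TGF-beta is known both as a restraint on growth and as an inducer of epithelial-to-mesenchymal transition (EMT), and SOX4 has been described as acting in that transition.

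The organoids came from tumors of MMTV-PyMT; MMTV-Cre; Ecadherin-mCFP mice, in which the MMTV promoter drives the polyoma middle T oncogene in mammary epithelium, so every line carries the oncogene, the Cre transgene and the reporter. SOX4 was knocked out in SOX4KO lines, and each line is a separate clone that was cultured in Matrigel for 4 days in medium with the growth factor FGF2. Bulk RNA-sequencing covered the control lines WT1 and WT3 and the SOX4KO lines H7, M4 and H4. Single-cell RNA-sequencing covered 1 plate each of the control library GR17 and the SOX4KO libraries GR18 and GR19.

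The bulk libraries held 3050323 to 4678497 reads on genes. The single-cell libraries held 369, 369 and 362 cells with at least 1000 unique molecular identifiers (UMIs), and their median depth was 19845 to 21876.5 UMIs per cell. The well names recur on all 3 plates as plate positions and do not tie cells together. Sox4 transcript was 295 and 374 CPM (read counts scaled to a common library size, the usual counts-per-million scale) in the control lines and 199, 179 and 299 CPM in the SOX4KO lines, so H4 lay within the control range. A small deletion or insertion need not remove the transcript, and this level is therefore no check of the protein. Epithelial genes were high in every line, with Epcam at 593 to 865 CPM. Immune markers summed to at most 14.4 CPM and endothelial markers to at most 3.96 CPM in any line, and the leukocyte gene Ptprc, the macrophage gene Lyz2 and the endothelial gene Cdh5 were at or near 0. The fibroblast list summed to 97.6 to 105 CPM in control lines and to 59.4 to 93.9 CPM in SOX4KO lines, most of it Pdgfra (41.4 to 99.8 CPM). Thy1 was at 0, and Pdgfrb and Dcn reached 16.4 and 11.7 CPM in H7.

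Among the 10 genes, Tgfb1, which encodes the ligand TGF-beta 1, was the only one to pass the test in bulk. Its level was 89.6 and 76.9 CPM in WT1 and WT3, and 135, 163 and 170 CPM in H7, M4 and H4. The 3 SOX4KO lines all lay above both control lines. The means were 83.2 ± 8.98 (SD, n = 2) and 156 ± 18.4 CPM (SD, n = 3), a log2 fold change of 0.91 ± 0.19 (SE) with an adjusted p of 0.0418 in edgeR's quasi-likelihood test. Of all 11682 genes tested, 6.27% passed at an adjusted p under 0.1, with 4.1% higher and 2.17% lower, so 1 call among 10 genes is near that background. The fold change of Tgfb1 was 0.80 to 1.02 when each line was left out in turn. It stayed past the threshold without H7, M4 or H4, and it missed the threshold without WT1 or without WT3, when the remaining control line is assumed to vary as the SOX4KO lines do (adjusted p up to 0.488). In a pool of cells, a change in the share of a cell type and a change in RNA per cell cannot be told apart.

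The bases before the RefSeq start sites are shown for 3 of the genes, because Tgfb1 was called in bulk and Tgfb2 and Tgfbi are among the 3 genes that differed between cell clusters. Promoters of 7 of the 10 genes were matched. Each run holds the 250 bases before the gene's start in RefSeq, build GRCm38.p6, at chr7:25686752-25687001 on the plus strand for Tgfb1, chr1:186705990-186706239 on the minus strand for Tgfb2 and chr13:56609336-56609585 on the plus strand for Tgfbi. Capitals mark the SMAD motif CAGAC and the SOX motif ACAAAG on either strand (GTCTG and CTTTGT on the other).
Tgfb1: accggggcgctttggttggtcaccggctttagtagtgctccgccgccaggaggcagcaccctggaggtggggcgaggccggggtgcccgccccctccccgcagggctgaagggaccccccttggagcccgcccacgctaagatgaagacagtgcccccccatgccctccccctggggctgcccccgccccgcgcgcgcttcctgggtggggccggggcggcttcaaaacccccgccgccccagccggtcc
Tgfb2: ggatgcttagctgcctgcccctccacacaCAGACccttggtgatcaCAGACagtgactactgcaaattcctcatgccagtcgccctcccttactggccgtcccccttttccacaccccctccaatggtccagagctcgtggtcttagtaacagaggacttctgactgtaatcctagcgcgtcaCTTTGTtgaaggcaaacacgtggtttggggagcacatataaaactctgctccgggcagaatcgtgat
Tgfbi: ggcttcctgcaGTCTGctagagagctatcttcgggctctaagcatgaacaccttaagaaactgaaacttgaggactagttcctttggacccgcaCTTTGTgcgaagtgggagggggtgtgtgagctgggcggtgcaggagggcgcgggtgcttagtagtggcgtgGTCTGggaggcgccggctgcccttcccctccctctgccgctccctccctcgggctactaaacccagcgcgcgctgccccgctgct
The Tgfb1 run, at 75.2% G and C, held neither motif. The runs of Tgfb2 and Tgfbi each held CAGAC at 2 places and ACAAAG at 1. Of 27025 promoters, 42.2% held CAGAC and 16.5% held ACAAAG in the same 250 bases. None of the 3 held AACAAT or the AP-1 motif TGACTCA, which 9.62% and 4.43% of all promoters held. Among the other matched promoters, not shown, those of Inhba and Tgfbr1 held ACAAAG at 1 place and that of Tgfbr2 held CAGAC at 1. The Inhbb promoter held neither. A link between these motifs and the levels of the genes was not tested.

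Levels can be compared between genes only per length, here as normalized CPM per kilobase of annotated exon over all 5 lines. Inhbb, the gene of the inhibin beta B chain, was highest at 102 ± 24.8 CPM per kilobase (SD, n = 5), and Tgfb3, the gene of TGF-beta 3, followed at 64.2 ± 9.07. Their ranges over lines overlapped, and both lay above every other gene of the group. Tgfb1 (25.2 ± 8.37) and the type II receptor gene Tgfbr2 (20.5 ± 3.37) came next with overlapping ranges. Fst (6.38), Smad7 (6.13), Inhba (5.14), Tgfb2 (4.62), the type I receptor gene Tgfbr1 (4.62) and Tgfbi (1.63) followed, and each of these ranges overlapped that of its neighbor. Exon lengths are from GRCm38 and the read counts from an earlier build, so small steps in this order carry no weight.

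**Figure D1:**
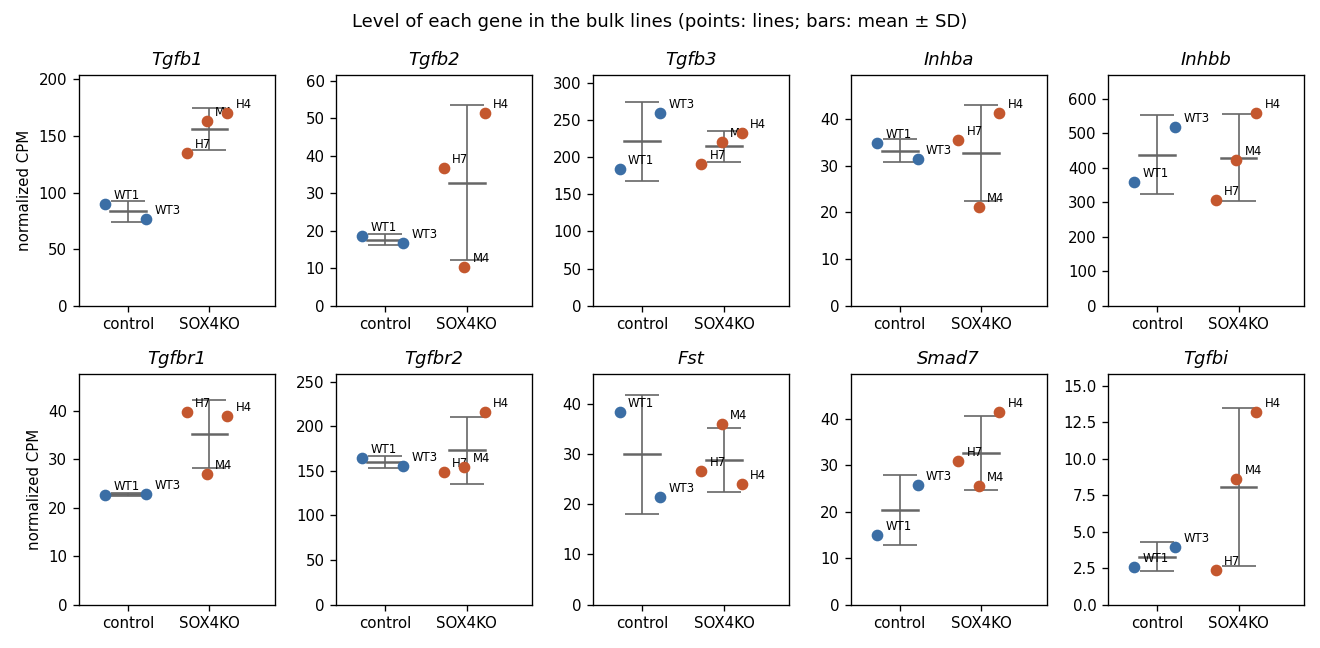
Normalized CPM (y axis, from 0) of each of the 10 genes in the 2 control lines and the 3 SOX4KO lines, with points for lines and bars for the mean ± SD. The SOX4KO lines lie wholly above the control lines for Tgfb1 and Tgfbr1 and overlap them for the other 8 genes.

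The other ligand genes did not pass the test. Tgfb2, which encodes TGF-beta 2, was 18.6 and 16.7 CPM in control lines and 36.8, 10.4 and 51.3 CPM in H7, M4 and H4. H7 and H4 lay above both control lines and M4 below them, for a log2 fold change of 0.92 ± 0.52 (adjusted p = 0.416, edgeR). Without M4 the fold change was 1.31 and passed, at an adjusted p of 0.0345 in edgeR. Tgfb2 also passed when no filter on low counts was used (0.0101), with a fold change of 0.91 and an SE of 0.26. Tgfb3 was 184 and 259 CPM in control lines and 191, 220 and 232 CPM in SOX4KO lines, for a log2 fold change of -0.05 ± 0.20. All 3 SOX4KO lines lay between the control lines.

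Inhba encodes the inhibin beta A chain, which forms activin A. Its levels were 34.9 and 31.5 CPM against 35.5, 21.2 and 41.2 CPM, for a log2 fold change of -0.01 ± 0.28. Inhbb, whose product forms activin B, was 358 and 519 CPM against 308, 423 and 558 CPM, a log2 fold change of -0.03 ± 0.28. For both genes the SOX4KO lines spanned the control range. Tgfb3, Inhba and Tgfb2 overlap transcripts on the opposite strand (Ttll5 for Tgfb3, B230303A05Rik for Inhba, Gm29491 for Tgfb2), and the strand setting of the counting is not given in the sources used here, so reads shared with these partners cannot be told apart.

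Tgfbr1, the type I receptor, was 22.5 and 22.9 CPM in control lines and 39.7, 27 and 38.8 CPM in SOX4KO lines. All SOX4KO lines lay above both control lines. The groups were apart in 1 direction or the other for 2 of the 10 genes (Tgfb1 and Tgfbr1) and for 36.9% of all genes tested. Its log2 fold change of 0.64 ± 0.23 had an adjusted p of 0.191 in edgeR and passed only without M4 (adjusted p = 0.0598). Tgfbr2, the type II receptor, was 165 and 155 CPM against 149, 154 and 216 CPM, a log2 fold change of 0.12 ± 0.21. Only H4 lay above the control lines.

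Fst encodes follistatin, which binds and neutralizes activins. It was 38.3 and 21.5 CPM in control lines and 26.6, 36 and 23.9 CPM in SOX4KO lines, with all SOX4KO lines inside the control range (log2 fold change -0.05 ± 0.29). Gm47040 overlaps Fst on the opposite strand. Smad7, an inhibitory SMAD that acts on the type I receptor and is itself induced by the pathway, was 15 and 25.7 CPM against 30.8, 25.6 and 41.4 CPM. M4 was level with WT3 and the others were higher, for a log2 fold change of 0.68 ± 0.30 (adjusted p = 0.284, edgeR).

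Tgfbi encodes an extracellular matrix protein induced by TGF-beta. Its levels were low, at 2.59 and 3.98 CPM in control lines and 2.35, 8.64 and 13.2 CPM in H7, M4 and H4. H7 was below both control lines and the other SOX4KO lines were above them. The log2 fold change of 1.27 ± 0.66 had an adjusted p of 0.368 in edgeR and passed without H7 (1.72, adjusted p = 0.0881) and with no filter on low counts (0.0661). The median log2 fold change of the 10 genes was 0.38, beside 0.01 for all genes tested.

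The pathway around these genes was read from a list of 89 other genes in 6 roles, of which 61 were tested. In SOX4KO lines 10 rose and 3 fell, which is 16.4% and 4.92% of those tested against 4.1% and 2.17% of all genes. The list was made with earlier results of these data known, so these shares cannot show an excess of calls. The median log2 fold change of the 61 was 0.31. With a stricter adjusted p under 0.05 there were 7 calls. When a control line was left out, 1 pathway gene passed, Ccn2 without WT1 and Col1a1 without WT3. The list shares 5 genes with the basal marker list, and 3 of them were called (Snai2, Sparc and Vim). Without those 5 genes, 7 rose and 3 fell of 58 tested.

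The genes of latency and activation held 3 calls among 9 tested. Lrrc32 encodes GARP, which holds latent TGF-beta on the cell surface. It was 91.4 and 64.3 CPM in control lines and 146, 217 and 210 CPM in SOX4KO lines, with no overlap, a log2 fold change of 1.30 ± 0.25 (adjusted p = 0.0361, edgeR). Ltbp3, a latent TGF-beta binding protein, rose from 446 and 520 CPM to 730, 777 and 928 CPM (log2 fold change 0.75 ± 0.20, adjusted p = 0.0916).

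Ltbp1, which binds the same latent complex in matrix, fell from 75.3 and 68.7 CPM to 33.1, 28.4 and 29 CPM. The groups were far apart for Ltbp1, with a log2 fold change of -1.25 ± 0.17 (adjusted p = 0.0131, edgeR). Ltbp2, Ltbp4, Thbs1, Itgb6, Itgb8 and Itgav did not pass. Itgav, the integrin alpha V chain, had the largest change of these at 0.81 ± 0.27 (adjusted p = 0.154). Lrrc32 and Ltbp1 passed without any 1 SOX4KO line and missed the threshold without either control line, and Ltbp3 passed only without M4.

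None of the 2 ligand genes, 5 receptor genes and 4 transducer genes tested passed. Each role is shown by its gene of highest mean CPM, a choice by reads and not per length. These were Gdf11, a ligand related to activin, at -1.0 ± 0.46, the activin type I receptor gene Acvr1b at 0.27 ± 0.18 and Smad3 at 0.56 ± 0.25 (log2 fold changes ± SE). Smad3 was 170 and 198 CPM in control lines and 359, 218 and 236 CPM in SOX4KO lines, with H7 far above the rest. Adjusted p-values of the 3 genes were 0.299, 0.473 and 0.279 in edgeR.

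Among 11 inhibitors tested, 1 rose and 1 fell. Fstl3, a follistatin-like protein that also neutralizes activins, had 22 and 36 reads in control lines and 60, 62 and 52 reads in SOX4KO lines, or 6.43 ± 1.04 (SD, n = 2) and 16.8 ± 5.03 CPM (SD, n = 3, log2 fold change 1.36 ± 0.34, adjusted p = 0.0767). The groups did not overlap for Fstl3, while those of Fst did, and the call of Fstl3 held only without H4. Tgif1, a corepressor of SMAD proteins, fell from 71.2 and 86.4 CPM to 45.4, 39.2 and 47.7 CPM (log2 fold change -0.84 ± 0.18, adjusted p = 0.0511, edgeR). Fstl3 overlaps Prss57 on the opposite strand. Bambi, Smad6, Smurf1, Smurf2, Ski, Skil, Tgif2, Pmepa1 and Dcn did not pass.

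Of 30 target genes tested, 7 rose and 1 fell. Cdkn2b, which encodes the cyclin-dependent kinase inhibitor p15, was 13.5 and 12.1 CPM in control lines and 42.3, 28.1 and 52 CPM in SOX4KO lines, a log2 fold change of 1.68 ± 0.29 (adjusted p = 0.0283, edgeR). Bhlhe40, a transcriptional repressor, rose by 1.03 ± 0.21 and Timp3, an inhibitor of matrix metalloproteinases, by 1.25 ± 0.23 on the log2 scale (adjusted p = 0.0456 and 0.0320). The SOX4KO lines lay above the control lines for both, and both overlap genes on the opposite strand (0610040F04Rik and Syn3). Igfbp3, a binding protein of insulin-like growth factors, rose most, from 122 and 40.8 CPM to 308, 663 and 199 CPM (2.26 ± 0.60). The SOX4KO lines differed over 3-fold among themselves for Igfbp3, whose adjusted p was 0.0892 in edgeR and 0.11 in DESeq2, and which passed without H4 and missed the threshold without any other line.

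Snai2, an EMT transcription factor that normal basal cells also express, rose by 1.25 ± 0.27, Vim, an intermediate filament gene, by 1.61 ± 0.26 and Sparc, a matrix protein gene, by 1.82 ± 0.48 on the log2 scale, with adjusted p-values of 0.0491, 0.0236 and 0.0891 in edgeR. Sparc passed only without H4 when lines were left out. Col1a1, a collagen I chain, fell from 219 and 97.6 CPM to 48.3, 71.3 and 61.3 CPM (log2 fold change -1.39 ± 0.32, adjusted p = 0.0624, edgeR). Ccn2, which encodes a matricellular protein often used as a readout of TGF-beta signaling and is named here after its values were seen, did not pass. It was 353 and 153 CPM against 680, 741 and 465 CPM (log2 fold change 1.31 ± 0.37, adjusted p = 0.103, edgeR). The SOX4KO lines all lay above the control lines for Ccn2, and DESeq2 called it.

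Some markers of cell types moved with the groups in bulk. Of 10 basal markers tested 5 rose (Oxtr, Vim, Jag2, Sparc and Snai2) and none fell. Vim, Sparc and Snai2 are calls already counted among the pathway targets, so their rise is no separate finding. The background beside each marker list here was a rise in 4.1% of genes and a fall in 2.17%. The lists were chosen with earlier results of these data known, so the marker counts cannot show an excess of calls. The basal list summed to 1440 to 2242 CPM in control lines and to 2829 to 7532 CPM in SOX4KO lines. Sparc was the largest part of each sum, at 1300 and 732 CPM against 3760, 5340 and 1690 CPM. Krt5, Krt14 and Krt17 were not called, with log2 fold changes of 1.47 ± 0.69, 0.33 ± 0.60 and -1.08 ± 0.78. Trp63 and Mylk, above both control lines in every SOX4KO line, were also not called. The defining contractile genes Acta2, Cnn1 and Tagln were at or near 0 and Myh11 was at 0. Of 7 cycling markers 5 fell, from a summed 531 to 563 CPM to 251 to 368 CPM. Of 16 luminal markers 1 rose and 1 fell, with summed levels of 5996 to 6220 CPM and 6269 to 11378 CPM. The higher sum came from the secreted proteins Lcn2 (2170 and 2170 CPM against 3160, 3150 and 5890 CPM) and Csn3 (337 and 271 CPM against 741, 165 and 2290 CPM), which were not called. Most other luminal markers had lower means in SOX4KO lines, such as Krt18 (644 against 453 CPM) and Foxa1 (142 against 78.7 CPM), also not called. The part of these shifts in the fold changes of the pathway genes was not tested.

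**Figure D2:**
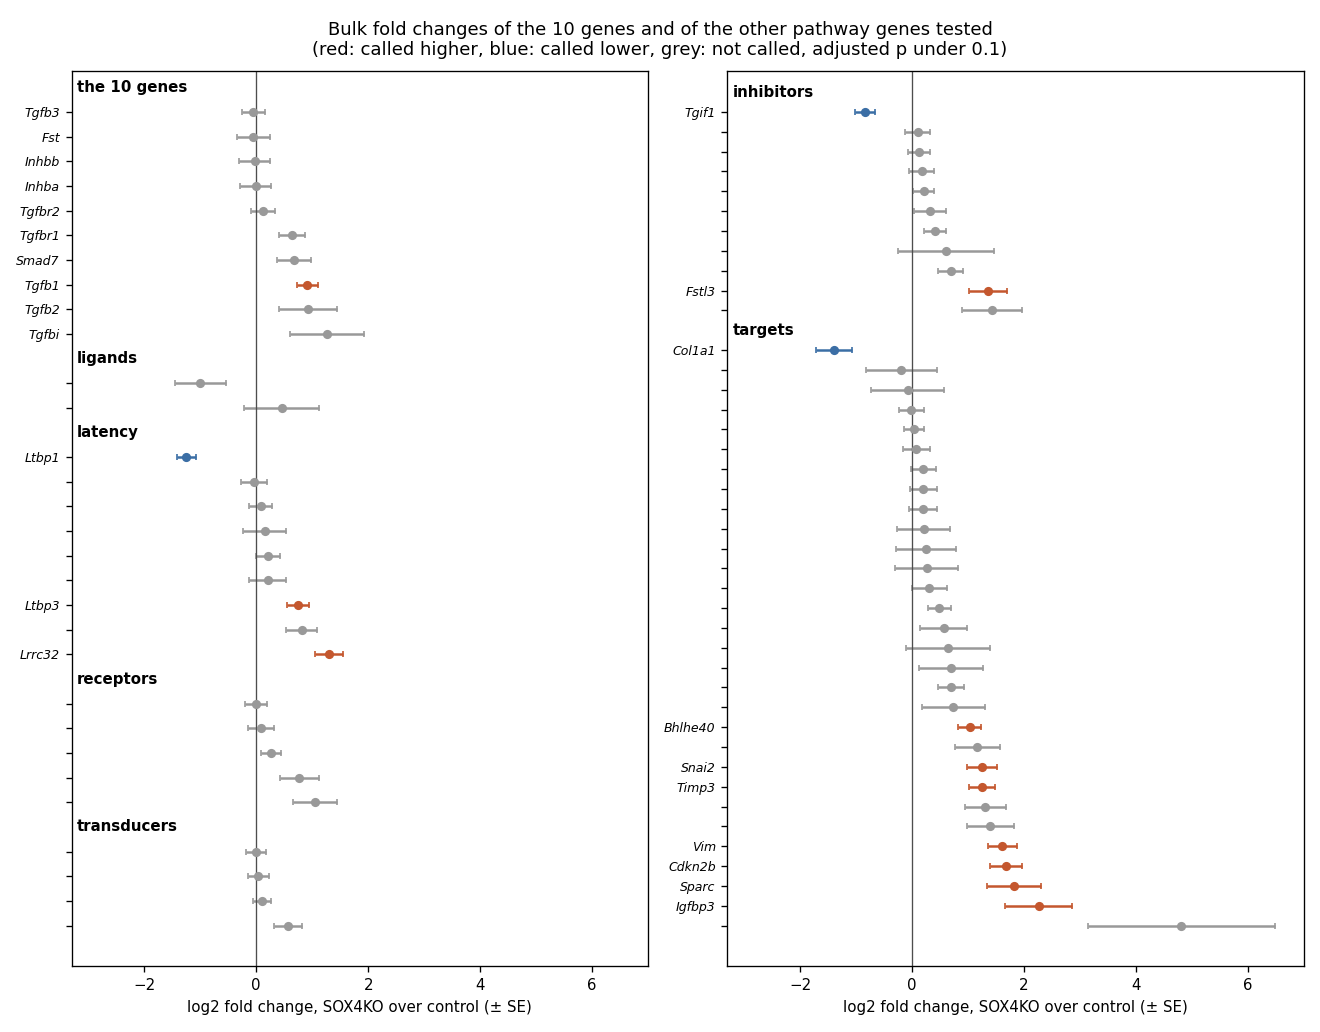
Log2 fold change of SOX4KO over control lines (x axis, ± SE) of the 10 genes and of the 61 other pathway genes tested, by role, with calls in red (higher) and blue (lower) and names given for the 10 genes and the calls. Tgfb1 is the only call among the 10 genes, and 8 of the other 13 calls are target genes.

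In single cells, 1 control library was set against 2 SOX4KO libraries, so the difference has no replicate check on the control side, and genotype, line and library cannot be told apart. UMIs were summed per library and given as CPM, with intervals that cover counting error only. A gene counted as past the fold when log2(CPM + 1) differed by at least 1 in the same direction in both SOX4KO libraries. Of all genes with at least 1 CPM on average 3.84% met this, and of those with at least 20 CPM 2.24%. Among the 10 genes it was met by Fst and Tgfbi.

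Fst was 136 CPM (95% Poisson interval 128 to 145) in the control library and 54.7 (49.7 to 60.1) and 65.7 CPM (60.3 to 71.4) in GR18 and GR19. Both SOX4KO libraries were lower, by 0.402 and 0.483 as ratios to the control, with counting intervals of 0.359 to 0.45 and 0.434 to 0.536. The lower level of GR19 was just past the fold, at -1.04 on the log2(CPM + 1) scale, and Fst was no longer past it when 10 CPM was added or when wells with over 2 times the median UMIs were left out. In the bulk lines Fst was within the control range, and those are other libraries made with another protocol.

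Tgfbi was counted 3 times in the control library and 45 and 46 times in GR18 and GR19, which is 0.389, 5.62 and 5.54 CPM. The ratios to the control were 14.4 (4.64 to 72.7) and 14.3 (4.58 to 71.7), and the wide intervals come from the 3 control UMIs. The 45 UMIs of GR18 lay in 25 cells and the 46 of GR19 in 28 cells, with at most 5 in 1 cell. With 10 CPM added the change was under the fold.

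No ligand gene was past the fold in both SOX4KO libraries. Tgfb3 was 54.2 CPM in GR17, 89.1 in GR18 and 85.7 in GR19, and Inhbb was 142, 190 and 173 CPM, higher in both SOX4KO libraries for both genes. Inhba was lower in both, at 102, 68.2 and 50.1 CPM, and its GR19 ratio of 0.494 was close to that of Fst. Tgfb2 was 3.37, 3.62 and 9.64 CPM, so only GR19 stood above the control, at a ratio of 2.86 (1.82 to 4.64).

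Tgfb1 was rarely captured, with 19, 8 and 13 UMIs in all cells of GR17, GR18 and GR19, or 2.46, 0.999 and 1.57 CPM. The interval of the GR19 ratio was 0.289 to 1.36 and that of GR18 was 0.154 to 0.97. With so few UMIs both libraries lay below the control library, the opposite order to the bulk lines, and only the interval of GR18 excluded 1.

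The receptors moved by less than the fold. Tgfbr1 was 21.3, 16.1 and 17.1 CPM, and the interval of the GR19 ratio included 1. Tgfbr2 was 32.9, 50.8 and 48.6 CPM, higher in both SOX4KO libraries (ratios 1.54 and 1.48). Smad7 was 18.4, 24.2 and 29.6 CPM, also higher in both (ratios 1.32 and 1.61).

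**Figure D3:**
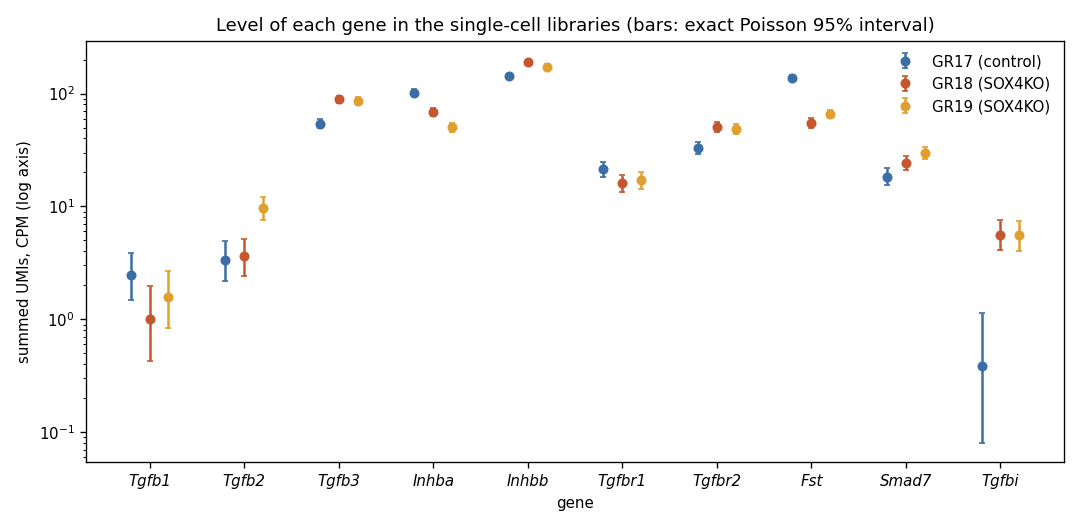
Summed UMIs as CPM (y axis, log scale) of each of the 10 genes in the control library and both SOX4KO libraries, with exact Poisson 95% intervals. Fst is lower and Tgfbi higher in both SOX4KO libraries by more than 2-fold, and Tgfb1 is between 0.999 and 2.46 CPM.

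The cells fell into 6 clusters, made without the 10 genes and the pathway list, so that these genes did not shape them. Cluster A held 334 of the 369 control cells and 15 SOX4KO cells, and may therefore stand for a library as much as for a cell state. Clusters B, C and F held 108, 88 and 58 cells of GR18 and 94, 79 and 53 of GR19. Like A they were high in the basal keratins Krt5 (1340 to 1970 CPM) and Krt14 (1460 to 2800 CPM), while Acta2 and Myh11 were near 0. The basal keratin Krt17 was 159 CPM in A but only 7.05, 7.91 and 3.3 CPM in B, C and F. In this they were closer to D and E (1.41 and 1.04 CPM) than to A. B had few cycling transcripts (32.1 CPM of Top2a), while A, C and F had 358, 326 and 436 CPM of Top2a. C was led by Serpinf1 and Mest and had the highest sum of cycling markers, at 2500 CPM. F was led by genes of mitosis such as Aspm and Cenpe.

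Clusters D and E were luminal-like, with Krt5 at 68 and 69.1 CPM and the milk protein gene Csn3 at 2740 and 2050 CPM. E was cycling, with Top2a at 265 CPM against 19.7 CPM in D, and was also led by secreted defense genes such as Ltf and Cxcl2. Clusters D and E together held 106 cells of GR18, 130 of GR19 and 26 of GR17. They were set apart from the other clusters by a rule chosen after the data were seen, namely that Krt8 and Krt18 together exceeded Krt5 and Krt14.

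Between luminal-like and other cells, 3 of the 10 genes differed at least 2-fold in the same direction in both SOX4KO libraries, which 6.11% of all genes with at least 1 CPM did. Tgfb2 was higher in luminal-like cells and Fst and Tgfbi were lower. The same 3 genes met this under each other clustering tried. Cells are not replicates, so these are descriptions of each library.

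Tgfb2 was 7.01 CPM in luminal-like cells and 2.02 CPM in the other cells of GR18, a ratio of 3.46 (95% counting interval 1.55 to 8.12). In GR19 it was 16.2 and 4.81 CPM, with a ratio of 3.38 (2.05 to 5.74). The 26 luminal-like control cells also stood higher, at 11.9 against 2.67 CPM. Within the luminal-like clusters Tgfb2 was highest in D of GR19, at 23.8 CPM, while D of GR18 had 4.81 CPM, so the libraries differed.

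Tgfb3 and Inhbb were also higher in luminal-like cells, but not by 2-fold in both SOX4KO libraries. Tgfb3 ratios were 2.11 (1.81 to 2.45) in GR18, 1.56 (1.35 to 1.82) in GR19 and 2.19 (1.65 to 2.86) in the control library. It was highest in the luminal-like cluster D, which had few cycling transcripts, at 201 and 152 CPM in GR18 and GR19, while the cycling luminal-like cluster E had 80.1 and 80.8 CPM, close to 87.4 and 90.1 CPM in B. Inhbb was instead high in both luminal-like clusters, at 290 and 277 CPM in D and 279 and 236 CPM in E.

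Between luminal-like and other cells the activin chains differed in opposite directions. Inhba was lower in luminal-like cells of all 3 libraries, with ratios of 0.432 (0.283 to 0.634) in GR17, 0.629 (0.511 to 0.769) in GR18 and 0.382 (0.299 to 0.483) in GR19. It was highest in B, at 128 and 105 CPM, and in A, at 106 CPM in the control library. In C and F it lay between 46.3 and 52.6 CPM. Among these SOX4KO clusters Inhbb was also highest in B, at 220 and 150 CPM, against 75.8 to 133 CPM in C and F.

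Fst, which neutralizes the products of both activin genes, was lower in luminal-like cells, as Inhba was. Among the other SOX4KO clusters its order differed from that of Inhba. Fst was 24.9 and 39.6 CPM in luminal-like cells of GR18 and GR19 and 68.7 and 84.8 CPM in the other cells. Among groups of at least 20 cells its lowest value was 10.4 CPM, in D of GR18. Among the other SOX4KO clusters Fst was lower in B (41.5 and 55.8 CPM), where Inhba was highest, than in C (93.6 and 97.4 CPM) and F (70.1 and 106 CPM). Cluster A of the control library had 142 CPM, above every SOX4KO cluster with at least 20 cells.

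The SOX4KO libraries held more luminal-like cells, and Fst was also compared within each kind of cell. In cells outside the luminal-like clusters Fst was 141 CPM in GR17 and 68.7 and 84.8 CPM in GR18 and GR19, log2(CPM + 1) differences of -1.03 and -0.73, which were below the control but no longer past the fold in GR19. In luminal-like cells, with only 26 in GR17, the differences were -1.48 and -0.83. For Tgfbi the cells outside the luminal-like clusters gave differences of 2.68 and 2.84. Those cells were mostly of cluster A in GR17 and of B, C and F in GR18 and GR19.

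Tgfbi was highest in cluster B of the SOX4KO libraries among groups of at least 20 cells. There it was 18 CPM (95% Poisson interval 12.4 to 25.3) in GR18 and 17.8 CPM (11.9 to 25.5) in GR19, which accounts for 33 of 45 and 29 of 46 UMIs. C and F held most of the rest, at 2.69 to 6 CPM. Luminal-like cells held 1 UMI in GR18 and 2 in GR19, and cluster A of the control library held 2. The 9 control cells of B held 1 UMI, or 11.8 CPM (0.299 to 65.8), too few to compare with B of the SOX4KO libraries. The genes of largest fold in cluster B included Postn, which encodes the matrix protein periostin.

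The receptors were spread more evenly. Tgfbr2 lay between 32.4 and 66.9 CPM in the groups of at least 20 cells, with ratios of luminal-like to other cells of 0.994 (0.801 to 1.23) and 1.04 (0.845 to 1.27). Tgfbr1 was lowest in D, at 8.02 and 10.4 CPM, against 14.2 to 22.3 CPM elsewhere. Smad7 had ratios of 0.971 (0.705 to 1.32) and 1.08 (0.835 to 1.40), and was highest in F at 36.7 and 33.4 CPM. Tgfb1 had 0 to 2.41 CPM in any group of at least 20 cells, too few UMIs to place it.

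**Figure D4:**
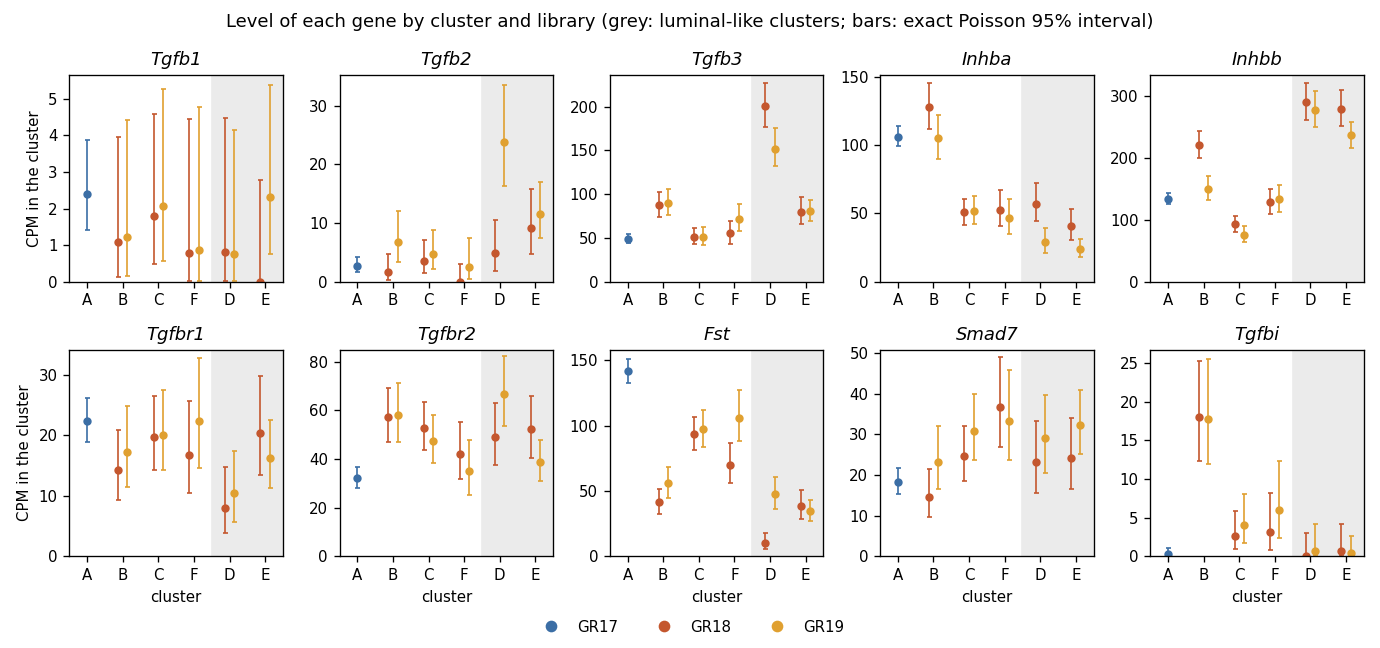
CPM of each of the 10 genes (y axis, from 0) in each cluster and library with at least 20 cells, with exact Poisson 95% intervals and the luminal-like clusters D and E on grey. Tgfb3 stands out in D, Inhbb in D and E, Inhba in A and B, Fst in A, and Tgfbi in B.

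Of the pathway genes called in bulk, 12 were listed in the single-cell tables, and Fstl3 was not analysed there. Of the 9 among them that rose in bulk, 4 were at least 2-fold lower in luminal-like cells of both SOX4KO libraries. Of all genes with at least 1 CPM, 6.11% differed at least 2-fold in 1 direction or the other. Sparc and Snai2, among the 4, are also on the basal marker list, so their low level in luminal-like cells is no separate finding. Lrrc32 ratios of luminal-like to other cells were 0.191 (0.109 to 0.315) and 0.138 (0.064 to 0.264), and Igfbp3 ratios were 0.066 and 0.0694. Sparc (0.0426 and 0.0441) and Snai2 (0.0507 and 0.0529) were lower still. Ltbp1, which fell in bulk, had the highest ratios of the 12, at 17.9 and 13.4 CPM in luminal-like cells and 3.49 and 3.13 CPM in the others (ratios 5.13 and 4.27).

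Timp3 and Bhlhe40, which also rose in bulk, were higher in luminal-like cells, with ratios of 2.16 and 1.63 for Timp3 and of 1.40 and 1.31 for Bhlhe40. Ltbp3 was even, at 0.988 (0.866 to 1.13) and 0.904 (0.801 to 1.02). Cdkn2b ratios of 1.56 and 1.41 had intervals that included 1, and Vim was 0.713 and 0.963. Between libraries, Ltbp3 was 83.4 CPM in GR17 and 132 and 136 CPM in GR18 and GR19, and Lrrc32 was 8.82, 25.6 and 13.1 CPM, both higher in each SOX4KO library. Cdkn2b was instead lower in both, at 23.3, 10.6 and 14.7 CPM, while it rose in bulk. Igfbp3, Bhlhe40 and Snai2 were higher in both, as in bulk. Vim (716, 779 and 688 CPM), Sparc (593, 1150 and 595 CPM) and Timp3 (81, 109 and 71.5 CPM) were higher in GR18 but not in GR19. Ltbp1 was 5.70, 8.12 and 7.47 CPM, with intervals of both ratios that included 1. Tgif1 (133, 104 and 123 CPM) and Col1a1 (6.74, 4.49 and 2.77 CPM) were lower in both, as in bulk. The GR19 interval of Tgif1 and the GR18 interval of Col1a1 included 1. Of the 52 Col1a1 UMIs of GR17, 30 lay in 1 cell.

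**Figure D5:**
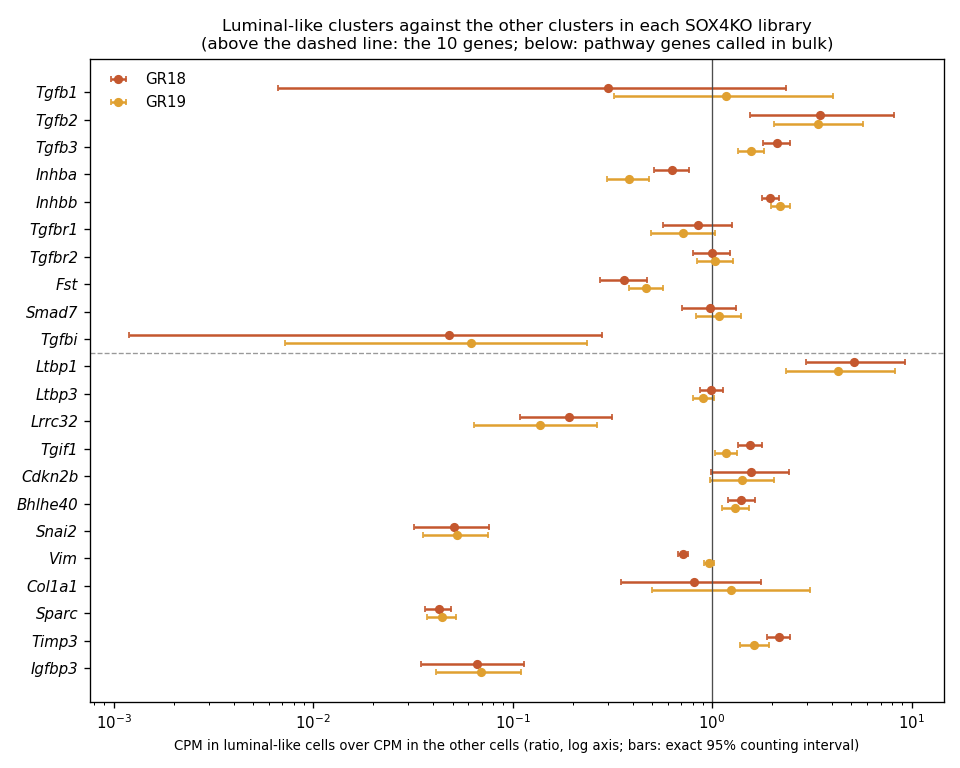
Ratio of CPM in luminal-like cells to CPM in the other cells (x axis, log scale) in each SOX4KO library, with exact 95% counting intervals, for the 10 genes and for the pathway genes called in bulk. Intervals lie wholly to the right of 1 in both libraries for Tgfb2, Tgfb3, Inhbb, Ltbp1, Timp3, Bhlhe40 and Tgif1. They lie wholly to the left for Inhba, Fst, Tgfbi, Lrrc32, Snai2, Sparc and Igfbp3.

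For the 6 members with at least 20 CPM on average, the genes most alike were found by Pearson's r of log2(CPM + 10) over 11 groups of cells (cluster by library), among 6303 genes. The 11 groups share libraries and cell states, so these values describe the groups and carry no test. Tgfb3 was most like Mien1 (0.97), Btg2 and Camk1 (both 0.96), and Inhbb was most like Ezr (0.98), Ralgds and Xbp1 (both 0.96). Inhba was most like Sox13 (0.94), Atpif1 and Klf4 (both 0.91), and Fst was most like Lphn1 (0.95), Spsb4 (0.94) and Ptpn1 (0.93). Tgfbr2 was most like Snapin (0.93), Ostf1 (0.91) and Sirt2 (0.90). For Smad7 the highest values were 0.86, with Zc3h7a, Oat and Zzz3.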

How the data were processed

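Control and SOX4KO organoid lines were profiled by bulk RNA-sequencing (5 lines) and by plate-based single-cell RNA-sequencing (3 libraries). The deposited tables hold counts that the authors made with htseq-count for each Ensembl gene in bulk, and UMI counts for each gene and well in single cells. The submitters' processing notes name STAR 2.4.2a and the builds mm9 and NCBIM37. Of the reads listed in the bulk tables, 71.6% to 83.9% were not assigned to a gene and were left out. The bulk counts entered the quasi-likelihood test of edgeR 4.0.16 (R 4.3.3) after TMM scaling and filterByExpr, which kept 11682 genes. Calls needed a Benjamini-Hochberg adjusted p under 0.1. DESeq2 1.42.0 was an alternative. Normalized CPM use TMM factors. Each line was sequenced as 1 library, so p-values measure the spread between clones. Cells with at least 1000 UMIs were clustered with Seurat 5.3.0 (2000 variable genes, 10 principal components, 20 neighbours, resolution 0.5), and 85 listed genes were left out of the variable genes. Doublets were not called, and wells over 2 times the median UMIs were left out as an alternative. Ratios have exact 95% counting intervals. Named were all members, pathway genes called in bulk, the most expressed gene of each role without a call, and the 3 genes most like each member. The members and lists were chosen with earlier results of these data known. Symbols, exon lengths and overlaps are from GENCODE M21 (GRCm38). Results of 1 pathway gene are not reported here by name.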

Additional observations from a re-analysis of the deposited data

Results flagged for a closer look

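Cdkn2b moved in opposite directions in the bulk and the single-cell libraries. In bulk its log2 fold change was 1.68, with all 3 SOX4KO lines above both control lines. In single cells its log2(CPM + 1) differences from the control library were -1.07 in GR18 and -0.63 in GR19, with Poisson intervals apart from that of the control. The difference between the assays was not tested, and assay, line and library cannot be told apart. No group holds 4 samples or more, so single outlying samples were not searched for.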

How the results depend on the processing

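No paired analysis was possible because the lines are separate clones and the labels give no replicate numbers that tie a control line to a SOX4KO line. The share of all genes was counted only under the main settings, so the counts below under other settings have no background beside them. Members called in bulk numbered 1 with DESeq2, DESeq2 size factors, at least 10 counts in 2 lines or an adjusted p under 0.05. With no filter beyond 1 count, their count was 3 (Tgfb1, Tgfb2 and Tgfbi). It ranged from 0 to 3 when each line was left out, being 0 without WT1 or WT3. The count of pathway genes called was 24 with no filter beyond 1 count, 7 at an adjusted p under 0.05 and 1 to 17 when each line was left out, with 1 without WT1 or WT3. Fold changes near 0 changed sign with some lines left out, to 0.02 to 0.22 for Tgfb3, 0.06 to 0.21 for Inhba, 0.16 to 0.26 for Inhbb, 0.07 to 0.42 for Fst and -0.07 for Tgfbr2, and were otherwise as low as -0.28, -0.21, -0.27 and -0.42 for the first 4 and as high as 0.21 for Tgfbr2. The cause was not tested. Members past the single-cell fold numbered 2 with either other UMI minimum, 0 with 10 CPM added, 1 (Tgfbi) without wells over 2 times the median and, chosen after the data were seen, 1 (Tgfbi) outside luminal-like clusters. The count was 2 to 4 when either SOX4KO library was left out, and without GR18 it added Inhba and Tgfb2. The count across clusters was 3 in all clusterings, and Inhbb in GR18 was 0.78 (log2) with 20 principal components. With 1 single-cell control library and 2 bulk control lines, the spread of controls limits every comparison.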
